A study of Danio rerio with 2 samples.

Results

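The transcripts described here are those of 31 zebrafish (Danio rerio) genes for the contractile, calcium-handling and structural proteins of skeletal muscle. They were taken by name, from a list made with earlier results of these data known, and looked up on the array under their current or older zebrafish symbols. Spots were found for 28 of the 31 genes, 13 under a current symbol and 15 under an older name, out of 35974 genes and transcripts on the array. These genes held 46 spots, and 1 of them, a further tnnt1 spot, was found through its NCBI gene ID. The fast myosin heavy chain genes myhz1.1 and myhz2 and the tropomyosin gene tpm2 matched no spot by name and were not analysed here.

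Zebrafish eggs had been injected with 10.3 ng of MO2-ers2a, a morpholino (a synthetic antisense oligonucleotide) that blocks translation of the estrogen receptor beta2 transcript, written ers2a in the labels and now esr2a, or with 10.3 ng of a control morpholino. The groups were MO2-ers2a and MO-control embryos fixed at 48 hours post fertilization (hpf), and MO2-ers2a and MO-control embryos fixed at 8 hpf, all raised at 28.5 °C. Each time had 1 Agilent 2-colour array of total RNA, with MO2-ers2a embryos in Cy5, MO-control embryos in Cy3 and no dye swap. The labels give neither a strain, nor the number of embryos pooled, nor an uninjected group, and a morpholino reaches all tissues of the embryo and acts for a limited time.

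A ratio below is the log2 of MO2-ers2a over MO-control after dye normalization, and is positive where MO2-ers2a embryos gave the stronger signal. With 1 array per time there is no replicate error, and no difference below was tested or given a p-value. The measured spread is that between spots of the same gene within an array, with a pooled SD, in log2 units, of 0.24 on the 48 hpf array and 0.32 on the 8 hpf array. A gene is called measured where at least 1 of its spots stood above the negative controls in both channels, and its ratio is the median over such spots. Calls of 2-fold (1 on the log2 scale) or 1.5-fold are rules of size. A dye bias of single probes cannot be told apart from a difference between the groups.

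Skeletal muscle contracts when thick filaments of myosin pull on thin filaments of actin within the sarcomere. Calcium released from the sarcoplasmic reticulum through the ryanodine receptor binds troponin C, which shifts tropomyosin and exposes the actin, and the pump Serca returns the calcium to the store. In the zebrafish trunk, slow fibres form first from adaxial cells beside the notochord and fast fibres make up the bulk of the myotome, each with its own isoforms of many sarcomere proteins. At 8 hpf the embryo is a gastrula without muscle fibres, while at 48 hpf the trunk muscle is striated and moves the body.

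At 48 hpf, most of the muscle transcripts had slightly more signal in MO2-ers2a embryos, and 4 of them had much more. The titin cap gene tcap was 6.28-fold, the actin gene actc2 5.18-fold, the Popeye domain gene popdc3 4.04-fold and the desmin gene desma 2.41-fold higher. Of the 28 genes on the array, 26 were measured, 22 of these lay above 0, and their median was 0.30, while the median of all 16630 measured genes and transcripts was -0.02. Without loess, the members' median was 0.55 with the dyes centred on measured spots and 0.94 with centring on all spots. In both cases it was 0.57 above that of all genes, where it was 0.32 above with loess. These centrings shift the same log ratios by a constant, so their equal difference is fixed by construction. With centring on all spots, 26 of the 26 lay above 0 and the median of all genes was 0.37. Ratios above 0 made up 47.9% of all measured genes. The 4 genes that were 2-fold higher compare with a background of 1.27% of all measured genes, and 0 members were 2-fold lower, with a background of 1.25%. At 1.5-fold, 8 members were higher, with a background of 5.65%, and 0 were lower, with a background of 6.86%. These RNA samples came from whole embryos, so more muscle tissue and more transcript per muscle cell cannot be told apart.

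**Figure D1:**
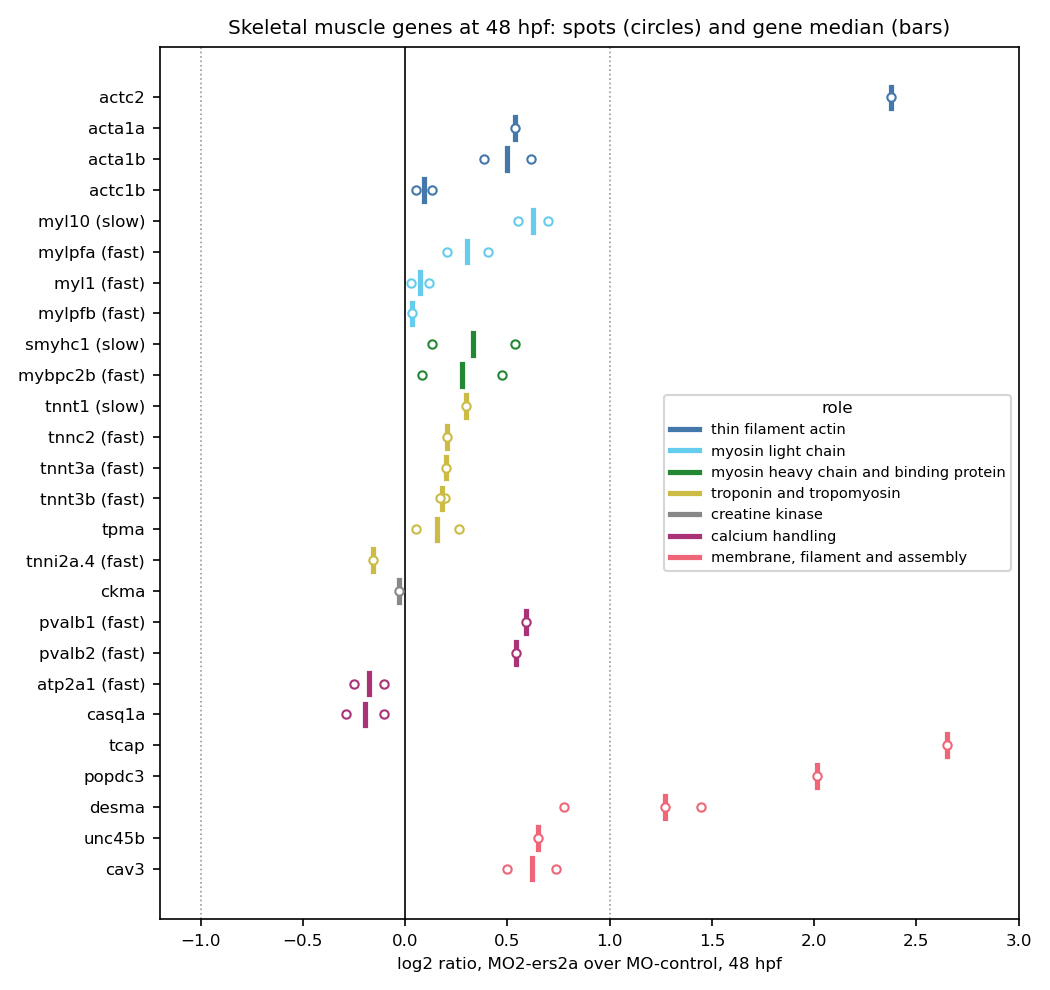
Log2 ratio of MO2-ers2a over MO-control embryos at 48 hpf (x axis) for the 26 measured muscle genes, ordered by role and then by value. Circles are spots, bars are gene medians and dotted lines mark 2-fold. The genes tcap, actc2, popdc3 and desma lie to the right of the 2-fold line, and the lowest gene, casq1a, is at -0.19.

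Of the 4 genes that were 2-fold higher, tcap, popdc3 and desma belong to a group of Z-disc, membrane, filament and assembly genes, and actc2 to the actins. Each signal below is a dye-normalized intensity, on a linear scale, of the spot named. The spot of tcap, whose protein caps titin at the Z-disc, read 1903 in MO2-ers2a embryos against 303 in MO-control embryos, a log2 ratio of 2.65. The measured popdc3 spot, for a membrane protein of the cAMP-binding Popeye family, read 655 in MO2-ers2a embryos and 162 in MO-control embryos, a ratio of 2.01. In both genes the control signal was low, and the value of popdc3 depended on how dim signals were treated. The authors' deposited log ratio put popdc3 at 4.45 and tcap at 3.02 on the log2 scale. The other popdc3 spot was above background in neither channel, and taking it in without a filter brought the gene to 1.02.

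The intermediate filament protein desmin, which ties neighbouring Z-discs together, is encoded by desma, and its 3 spots all had more signal in MO2-ers2a embryos. The spots read 20588, 21649 and 5930.4 in MO2-ers2a embryos, against 8537, 7940.0 and 3462 in MO-control embryos. Their ratios were 1.27, 1.45 and 0.78, so 1 of the 3 fell short of 2-fold. The caveolin of muscle membranes, cav3, stood at 0.62, with its spots at 15364 and 9407 in MO2-ers2a embryos and 9211 and 6660.2 in MO-control embryos. The single unc45b spot, for a chaperone that folds myosin heads, read 8014 in MO2-ers2a embryos against 5109 in MO-control embryos, a ratio of 0.65. Thus all 5 genes of this kind were at least 1.5-fold higher (background 5.65%), with a median of 1.27. With only spots over 4 times the detection limit, which leaves out tcap and popdc3, 3 of these genes remained, with a median of 0.65. With no filter on dim spots, the median of the 5 was 1.02. This grouping by role was made after their values were known.

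Among the thin filament actins, actc2 stood apart from its paralogs. Its only spot read 14882 in MO2-ers2a embryos and 2872 in MO-control embryos, a ratio of 2.37, which was 2.40 in the authors' deposited table. The acta1a spot read 2215 in MO2-ers2a embryos and 1526 in MO-control embryos, a ratio of 0.54. The spots of acta1b, at 42157 and 13316 in MO2-ers2a embryos against 32268 and 8692 in MO-control embryos, gave 0.50 as their median. For actc1b, a main actin of larval muscle, the ratio was 0.09, with 77329.6 and 251 in MO2-ers2a embryos and 70681 and 242 in MO-control embryos. The actins other than actc2 thus ran from 0.09 to 0.54. On the array the actc1b spots are named acta1 and the acta1b spots actc1, and both were assigned through these older names. Whether they read the transcripts assigned to them was not tested. Actin coding sequences are nearly identical, the probe sequences were not used here, and binding of a probe to several actin transcripts was not tested.

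Myosin light chains, which stiffen and regulate the myosin neck, were closer to 0 for the fast isoforms than for myl10. The regulatory light chain mylpfa had 73579 and 20365 in MO2-ers2a embryos against 55599 and 17696.5 in MO-control embryos, a ratio of 0.30. Its paralog mylpfb was at 0.03, with 56733 in MO2-ers2a embryos and 55416 in MO-control embryos. The essential light chain myl1 was at 0.07, with 43249.8 and 39771 in MO2-ers2a embryos and 39901 and 39008 in MO-control embryos. Both spots of myl10, placed here with the slow isoforms, were higher: 111428 and 936 in MO2-ers2a embryos against 68729 and 639 in MO-control embryos, a ratio of 0.62. This gene was also the 1 member that was 2-fold higher at 8 hpf.

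The thick filament was represented by 2 genes. The slow myosin heavy chain smyhc1 had spots at 9491 and 878 in MO2-ers2a embryos and at 8676 and 605 in MO-control embryos. These gave 0.13 and 0.54, which differ by more than the pooled SD between spots, with a median of 0.33. The fast myosin binding protein mybpc2b, which cross-links the thick filament, showed the same kind of spread, with 0.47 and 0.08. It read 26228 and 4739 in MO2-ers2a embryos against 18908 and 4480.5 in MO-control embryos.

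Troponin and tropomyosin transcripts, the calcium switch of the thin filament, had a median ratio of 0.19, which was 0.50 with centring on measured spots and 0.44 with spike-in scaling, both without loess. The fast troponin T gene tnnt3b had 99479 and 79171 in MO2-ers2a embryos against 86891.5 and 70406.5 in MO-control embryos, a ratio of 0.18. Its paralog tnnt3a was at 0.20 (16992 in MO2-ers2a and 14794 in MO-control embryos), and the fast troponin C gene tnnc2 at 0.20 (33673 in MO2-ers2a and 29245 in MO-control embryos). Tropomyosin tpma was at 0.16, with 73537 and 42897 in MO2-ers2a embryos against 61366 and 41374 in MO-control embryos. Slow troponin T, tnnt1, was measured at 1 of 3 spots, with 1379 in MO2-ers2a and 1121 in MO-control embryos, a ratio of 0.30. Thus all 5 of these ratios lay between 0.16 and 0.30. The fast troponin I gene tnni2a.4 was at -0.16, with 200.4 in MO2-ers2a and 223 in MO-control embryos. On the 8 hpf array, which was normalized separately, the same spot read 446 in MO2-ers2a and 336 in MO-control embryos. Whether this spot, assigned through an older name, reads the tnni2a.4 transcript was not tested. For the muscle creatine kinase gene ckma, whose enzyme buffers ATP, the ratio was -0.03 (35578 in MO2-ers2a and 36357 in MO-control embryos), and under these settings it was 0.30 and 0.24. The spots of ckmb were above background in Cy5 only and have no ratio at 48 hpf.

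Calcium genes lay on both sides of 0. The parvalbumins, soluble calcium buffers that speed relaxation of fast fibres, were higher: pvalb1 read 28444 in MO2-ers2a and 18895 in MO-control embryos (0.59), and pvalb2 read 41134 in MO2-ers2a and 28266 in MO-control embryos (0.54). By contrast, the Serca pump gene atp2a1 was at -0.18, with 94215.5 and 19407 in MO2-ers2a embryos against 111876 and 20863 in MO-control embryos. The store protein calsequestrin, casq1a, was at -0.19, with 435 and 261 in MO2-ers2a embryos and 531 and 280.5 in MO-control embryos. Both values are smaller than the pooled SD between spots, although each gene had both of its spots below 0. The direction of atp2a1 depended on loess: without it, the ratio was 0.17 with centring on measured spots and 0.11 with spike-in scaling. These settings do not correct the dyes by brightness. Before any dye correction the atp2a1 spots were at 0.74 and 0.78, and the other genes of the brightest class had a median of 0.90. The ratio of casq1a was -0.22 with centring on measured spots and -0.28 with spike-in scaling. With centring on all spots, which put the median of all genes at 0.37, they were 0.56 for atp2a1 and 0.17 for casq1a. The paralogs of atp2a1 and casq1a among the other excitation and calcium genes below, named after their values were seen, lay above 0. The calsequestrin gene casq1b was at 0.41, with 23154 in MO2-ers2a and 17371 in MO-control embryos. Its paralog casq2 was at 0.49, and the Serca gene atp2a1l at 0.35. The ryanodine receptor gene ryr1b was above background in Cy5 only and has no ratio.

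At 48 hpf, the 11 measured fast genes had a median of 0.20, with 9 above 0 and a range from -0.18 to 0.59, and the 3 measured slow genes (myl10, smyhc1 and tnnt1) ran from 0.30 to 0.62, with a median of 0.33. The difference, fast minus slow, was -0.13, and it turned to 0.03 without loess. It was not tested, and the pooled SD between spots of a gene does not measure the spread of such a difference between genes. In the list as a whole, 13 genes had several measured spots, and in all 13 the spots lay on the same side of 0, as in 72.0% of the 3446 genes on the array with several measured spots.

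**Figure D2:**
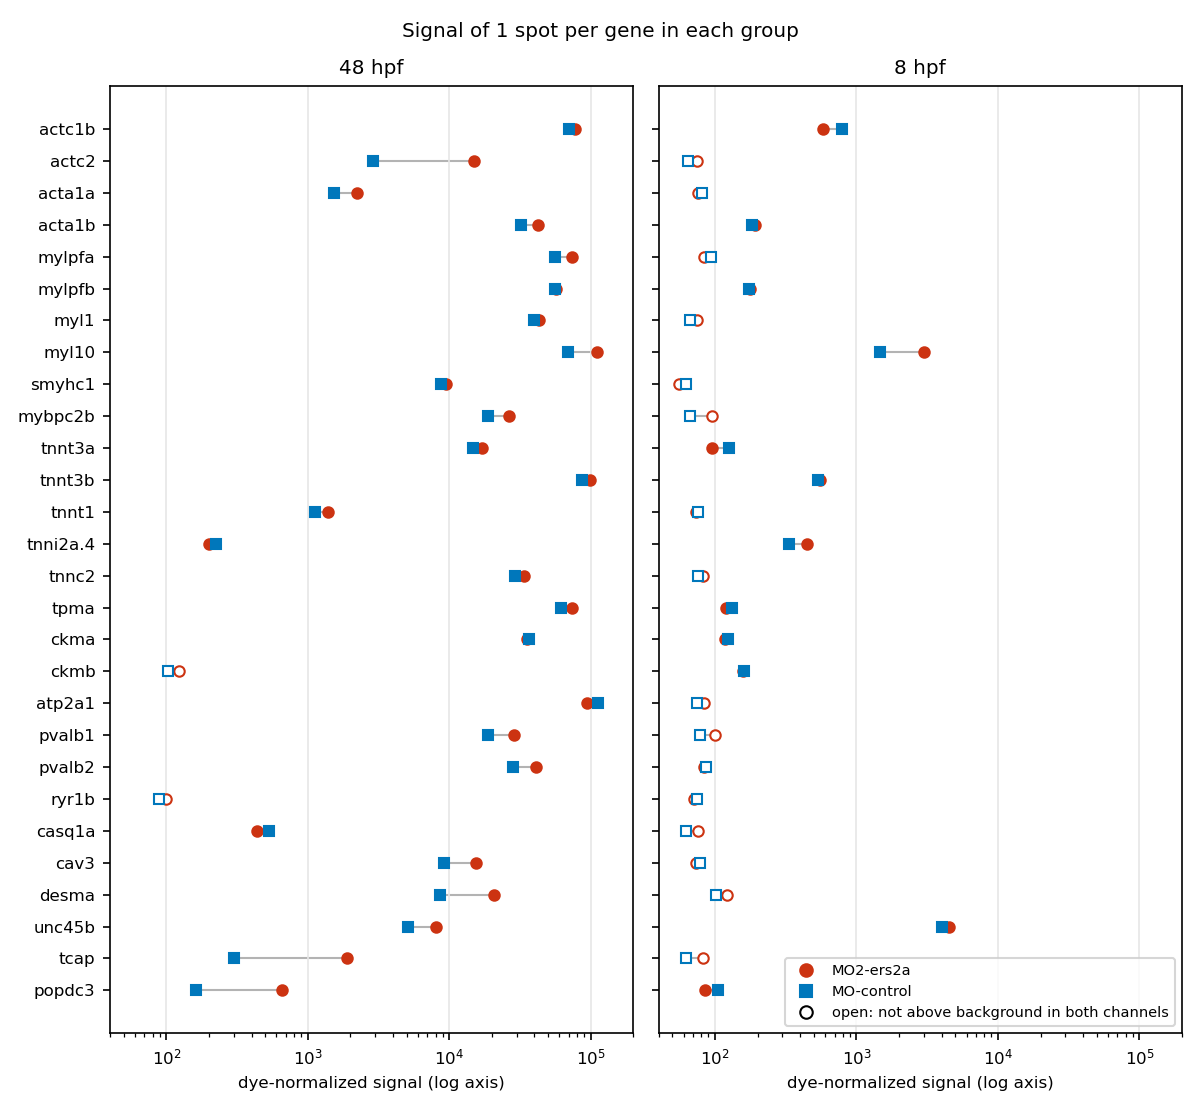
Dye-normalized signal (x axis, logarithmic) of 1 spot per gene, the brightest at 48 hpf, in MO2-ers2a embryos (circles) and MO-control embryos (squares), at 48 hpf on the left and 8 hpf on the right. Open symbols were not above background in both channels. At 48 hpf only ckmb and ryr1b are open, while at 8 hpf most genes are, and myl10 and unc45b have the brightest filled symbols there.

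On the 8 hpf array 13 of the 28 genes were measured, where 26 were at 48 hpf. Of all 35974 genes and transcripts on the array, 46.2% were measured at 48 hpf and 42.7% at 8 hpf, so the members' share at 8 hpf was near that of the whole array. Another 5 (mylpfa, mybpc2b, atp2a1, pvalb1 and pvalb2) passed in Cy5 only, whose detection limit was lower, and 10 passed in neither channel. Those 10 were actc2, acta1a, myl1, smyhc1, tnnt1, tnnc2, ryr1b, casq1a, cav3 and tcap, and they include the slow heavy chain and both of the genes with the highest ratios at 48 hpf. The 13 measured genes had a median of -0.07, with 6 above 0, against a median of -0.02 and 47.8% above 0 for all 15355 measured genes and transcripts. Without loess, 11 lay above 0 with centring on all spots and 1 with spike-in scaling, settings that put the median of all genes at 0.54 and -0.59. Under both, 3 of the 13 lay above that median, a count that is the same by construction because these settings differ by a constant.

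The 1 gene that was 2-fold higher at 8 hpf was myl10, with 2993 in MO2-ers2a and 1462 in MO-control embryos, a ratio of 1.03. Its other spot was above background in Cy5 only. With both spots taken in, the ratio was 0.63 and the 2-fold call ended. It was also below 2-fold, at 0.61, with spike-in scaling, which put the median of all genes at -0.59. The background for 2-fold higher at this time is 2.32%, and 0 members were 2-fold lower, with a background of 2.25%. At 1.5-fold, myl10 was again the 1 member that was higher (background 7.4%), and 0 were lower (background 8.04%). The chaperone gene unc45b was already well above background, with 4495 in MO2-ers2a and 3993 in MO-control embryos, a ratio of 0.17. The brighter actc1b spot read 577 in MO2-ers2a and 787 in MO-control embryos (-0.45), and tnnt3b had 555 and 154 in MO2-ers2a embryos against 535 and 175 in MO-control embryos (-0.07). All other members measured at 8 hpf lay between -0.41 (tnnt3a) and 0.41 (tnni2a.4).

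Of the 12 genes measured on both arrays, 10 had a higher ratio at 48 hpf than at 8 hpf, as had 51.0% of all 13178 genes measured on both. For mylpfb and ckma the difference was only 0.02 and 0.04, below the SD between spots of either array. For tnnt3b and tpma it was 0.25 and 0.30, below the SD of 0.32 on the 8 hpf array. A difference between arrays carries the spread of both. For desma the ratios were 1.27 at 48 hpf and -0.08 at 8 hpf, and for popdc3 they were 2.01 at 48 hpf and -0.31 at 8 hpf, where its spot read 85.4 in MO2-ers2a and 106 in MO-control embryos. In unc45b, the ratio was 0.65 at 48 hpf and 0.17 at 8 hpf. The exceptions were myl10, at 0.62 at 48 hpf and 1.03 at 8 hpf, and tnni2a.4, at -0.16 at 48 hpf and 0.41 at 8 hpf. For myl10 the 8 hpf value rests on 1 of its 2 spots. With no filter on dim spots the myl10 ratio was 0.62 at 48 hpf and 0.63 at 8 hpf. With spike-in scaling it was 0.81 at 48 hpf and 0.61 at 8 hpf. That scaling put the median of all genes at -0.08 at 48 hpf and -0.59 at 8 hpf. These differences were not tested, and several of the 8 hpf values rest on signals close to the detection limit.

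Many of the muscle spots were among the brightest of the 48 hpf array, where the dye correction matters. Before it, Cy5 was brighter than Cy3 in all 5 classes of brightness, and the median log2 ratio of the other genes ran from 0.27 in the dimmest class to 0.90 in the brightest. In the brightest class (14 to 18, mean log2 signal), the 11 muscle genes had an uncorrected median of 1.12 and the 424 other genes one of 0.90. After correction these were 0.18 and -0.01, with 9 of the 11 muscle genes above 0 and 48.8% of the others. In the class from 12 to 14, the 8 muscle genes had a corrected median of 0.62, all 8 above 0, against 0.00 for the 1330 others. The ratios of the brightest muscle genes are therefore smaller than the dye correction applied to them.

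**Figure D3:**
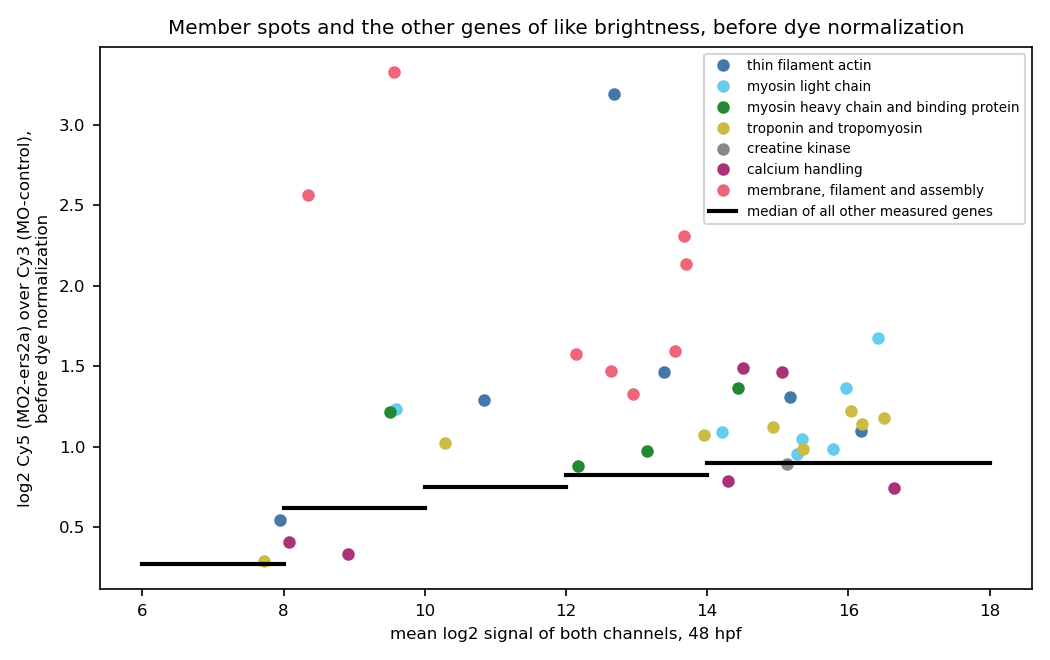
Log2 of Cy5 (MO2-ers2a) over Cy3 (MO-control) before dye normalization (y axis) against the mean log2 signal (x axis) for every measured spot of the muscle genes at 48 hpf, coloured by role, with the median of all other measured genes in each brightness class as black lines. The lines run from 0.27 to 0.90, and most muscle spots lie above the line of their class.

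Other genes of muscle were taken from lists of names, also made with earlier results of these data known. In the list for assembly, membrane and degradation, 34 of 39 genes on the array were measured. Their median was 0.54, with 22 above 0 (background 47.9%). Of them, 16 were at least 1.5-fold higher (background 5.65%) and 2 at least 1.5-fold lower (background 6.86%). At 2-fold, 3 were higher (background 1.27%). They were the caveola gene cavin1a at 1.73 (1027 in MO2-ers2a and 309 in MO-control embryos) and the muscle ubiquitin ligase genes trim63a at 1.08 and trim55a at 1.04. Both cavin1a and trim55a had 1 measured spot, and trim63a had 2. At the other end stood the protease gene capn3a at -0.78, fhl2a at -0.74 and fbxo32, a further ubiquitin ligase gene, at -0.43. The single measured fbxo32 spot had low signals of 126 in MO2-ers2a and 169 in MO-control embryos. Both signs therefore occur in this list, where 12 genes lay below 0.

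Among the other excitation and calcium genes, 24 of 29 on the array were measured, with a median of 0.38 and 21 above 0 (background 47.9%). The highest were the calcium channel subunit genes cacng1a at 1.01 and cacna1sb at 0.88, each with 1 measured spot. The acetylcholine receptor subunit gene chrne followed at 0.66. In the authors' deposited table cacng1a was at 0.99, so under 2-fold. With no filter on dim spots cacng1a was also under 2-fold, and 0 genes of the list were 2-fold higher, where 266 of all 35974 genes were. The other measured voltage-gated calcium channel subunit genes of the list, named after their values were seen, were cacng6a at 0.52 and cacna2d1a at 0.10. The lowest were pvalb5 at -0.82, rtn2a at -0.76 and asph at -0.31. For the other sarcomere genes, with 30 of 34 measured, the median was 0.27 and 27 lay above 0 (background 47.9%). None reached 2-fold. In the authors' deposited log ratios 3 were 2-fold higher and 1 was 2-fold lower, where 489 and 783 of all 16582 genes were. With plain background subtraction 1 was higher, where 297 of all 16630 genes were. The highest of the list were tnni2a.3 at 0.88, xirp1 at 0.78 and the titin gene ttn.1 at 0.64. Its lowest were the myosin heavy chain gene myhb at -0.50, tnni1d at -0.31 and myom1a at -0.05. With only spots over 4 times the detection limit, 21 genes of the list were measured and all 21 lay above 0, with a median of 0.26.

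Lists of marker genes of other tissues in these whole embryos had medians from -0.69 (neuron) to 0.40 (notochord), none of which was tested. Of all measured genes, 47.9% lay above 0 at 48 hpf. All 15 measured neuron genes lay below 0 (11 of them with centring on all spots), with a range from -0.92 to -0.20 and a median of -0.69; the lowest were stxbp1a at -0.92, sncb at -0.86 and tubb5 at -0.81, and the highest nefma at -0.20, snap25a at -0.26 and snap25b at -0.35. The 8 measured notochord genes had a median of 0.40, from shhb at 0.00, ntd5 at 0.32 and cav1 at 0.33 to tbxta at 0.44, shha at 0.50 and krt18a.1 at 0.66. Heart muscle genes had a median of 0.17 over 13 measured, from the troponin I gene tnni1b at -1.72, myl4 at -0.39 and gata5 at -0.03 to mybpc3 at 0.45, actc1a at 0.51 and myh6 at 0.65. The actc1a spot read 69840 in MO2-ers2a and 48968 in MO-control embryos, where the heart gene myl7 had medians of 1552 and 1482. Whether the actc1a spot reads heart muscle alone was not tested. The 4 measured smooth muscle genes had a median of 0.13 (myh11a at -0.24, acta2 at 0.10, foxf1 at 0.17 and tagln at 0.36). Epidermis genes had a median of 0.19 over 13 measured (-0.01 with only spots over 4 times the detection limit), from krt91 at -0.55, krt5 at -0.34 and tp63 at -0.28 to krt17 at 0.37, icn at 0.54 and cdh1 at 0.57. The part of tissue make-up in these and in the muscle values was not tested.

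**Figure D4:**
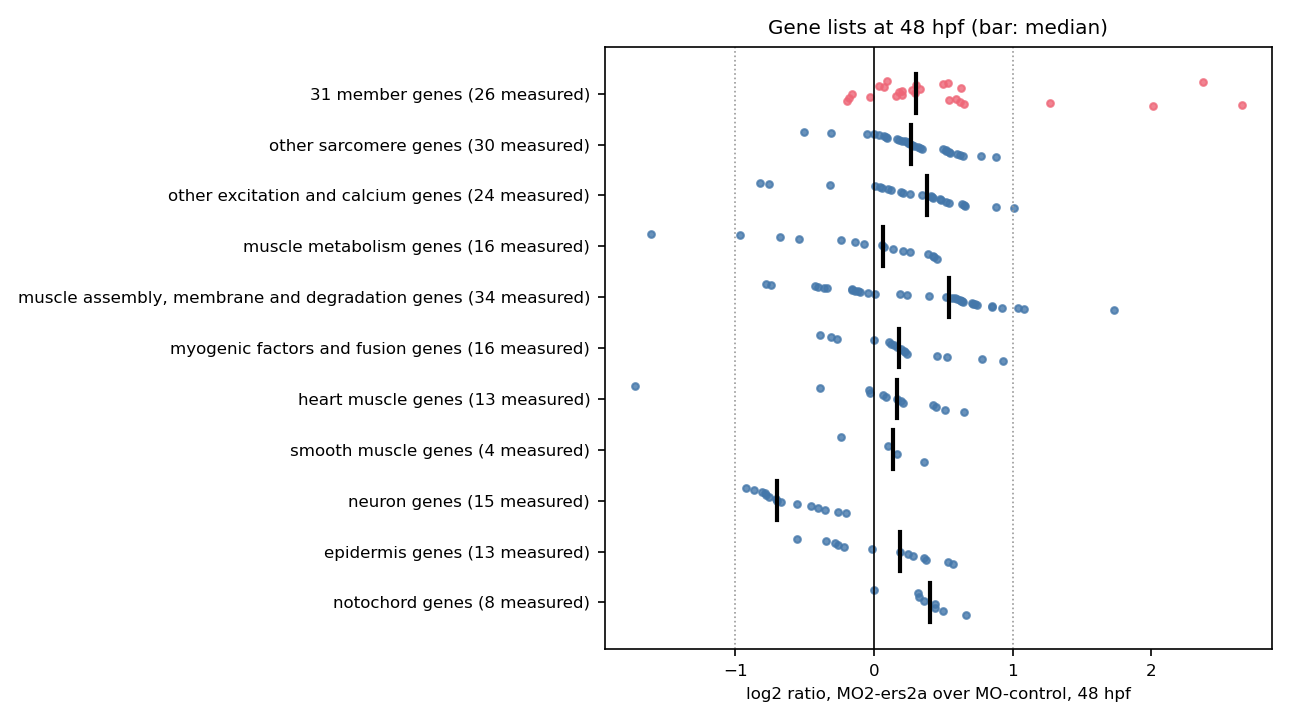
Log2 ratio of MO2-ers2a over MO-control at 48 hpf (x axis) for the genes of each list (points, spread vertically only for legibility), with the list median as a bar and 2-fold as dotted lines. The muscle genes described here have a median of 0.30, the assembly, membrane and degradation list 0.54 and the neuron list -0.69.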

How the data were processed

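Median signal and median local background intensities of each spot and channel were deposited on a linear scale, per the file headers. The authors also deposited log10 ratios, which track Cy5 over Cy3 (Pearson r of 0.984 at both times over bright spots) and have column medians of 0. Values at exactly 0 there (34.7% at 48 hpf, 36.8% at 8 hpf) were left out. The submitters' processing notes name Agilent Feature Extraction, with its version not given in the sources used here. Precision is limited by the 2 arrays, each made from 200 ng of RNA.

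Background was corrected by normexp (offset 50) and the dyes by loess (span 0.3, control spots at weight 0), using limma 3.58.1 under R 4.3.3. Both steps were run together on simulated data with a straight dye curve and planted changes. That run did not check normexp by itself or the errors of the real arrays. Dye-normalized signals keep the offset. A spot was measured where both background-subtracted signals passed the mean plus 2.6 SD of 153 negative controls. At 48 hpf this limit was 27.7 in Cy5 and 70.1 in Cy3, and it left 21008 of 43839 spots. The 8 hpf limits were 24.4 in Cy5 and 59.9 in Cy3, which left 19465. Names were brought up to date with RefSeq's table for GRCz12tu (no coordinates used) and a table of Ensembl names, where tnnc2 is now tnnc2.2. A current symbol was found for 20501 spots, 176 were ambiguous and 23162 had no match. Tables were made in Python 3.11.15 with pandas 2.3.3.

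Members, gene lists and rules were chosen with earlier results of these data known. Named are all members and, per list, the 3 highest, the 3 lowest and any 2-fold gene at 48 hpf. Further list genes that were named after their values were seen are marked as such. Alternatives changed the background correction, normalization, filter and summary over spots.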

Additional observations from a re-analysis of the deposited data

Results flagged for a closer look

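A spot named Tnni2 on the array lies outside the values above, because that older name belongs to both tnni2a.2 and tnni2a.4, fast troponin I genes. At 48 hpf it was above background in both channels, with 25680 in MO2-ers2a embryos and 21895 in MO-control embryos after dye normalization, a log2 ratio of 0.23 (0.24 in the authors' deposited table). At 8 hpf it was above background in neither channel. The spot assigned to tnni2a.4 was at -0.16 at 48 hpf and was above background in both channels at 8 hpf.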

How the results depend on the processing

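Each ratio already compares MO2-ers2a with MO-control embryos on the same spot. With 1 array per time there were no replicate arrays to pair and no dye swap. At 48 hpf, the median of the muscle genes kept its sign under all settings tried. It was 0.55 with centring on measured spots and 0.94 with centring on all spots, both without loess. The second moved the median of all genes to 0.37 at 48 hpf and 0.54 at 8 hpf, and spike-in scaling moved it to -0.08 at 48 hpf and -0.59 at 8 hpf. Relative to all genes, the muscle median was 0.57 higher under each of these 3 scalings and 0.32 higher with loess. The 3 scalings shift the same log ratios by a constant, so their equal difference is fixed by construction. It is 1 value, without correction of the dyes by brightness. The fast median was 0.53, 0.92 and 0.47 with centring on measured spots, centring on all spots and spike-in scaling, and the slow median 0.89 with centring on all spots. The count of genes 2-fold higher was 12 with centring on all spots and 2 with only spots over 4 times the detection limit, which leaves out tcap and popdc3, and otherwise 4. Measured at 8 hpf were 28 genes with no filter and 4 with the bright spots alone. Without actc2 and the membrane, filament and assembly genes, a split chosen after seeing the data, the 48 hpf median was 0.20. Over all genes at 48 hpf, 212 were 2-fold higher and 208 lower; these were 489 and 783 in the authors' deposited log ratios, 1254 and 84 with centring on all spots, 278 and 434 with centring on measured spots, 237 and 565 with spike-in scaling, 297 and 528 with plain background subtraction, 262 and 384 with a normexp offset of 16, and 131 and 154 with the bright spots alone. At 8 hpf they were 356 and 346, against 705 and 1030 in the authors' values, 2490 and 96 with centring on all spots, 482 and 633 with centring on measured spots, 127 and 3306 with spike-in scaling, 490 and 602 with plain background subtraction, and 189 and 261 with the bright spots alone. The cause of these shifts was not tested. Of 257 single-gene values recomputed at 48 hpf, 200 stayed within the pooled SD between spots and 57 moved. Most that moved came from the 3 settings without loess. There, of 26 genes, 26 moved with centring on all spots, 16 with centring on measured spots and 10 with spike-in scaling, all upward. The value of popdc3, close to the detection limit, ranged from 1.02 to 4.45.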

Other observations

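Genes of muscle metabolism lay on both sides of 0 at 48 hpf. All 16 on the array were measured, with a median of 0.07 and 9 above 0 (background 47.9%). The phosphorylase kinase subunit gene phkg1a was 3.05-fold lower, at 222 in MO2-ers2a and 678 in MO-control embryos (1 measured spot). The AMP deaminase gene ampd1 was at -0.97, with spots at -1.28 and -0.65. The single measured ckmt2a spot was at -0.67, with low signals of 97 in MO2-ers2a and 155 in MO-control embryos. In the authors' deposited log ratios these were -1.15 for ampd1 and -1.78 for ckmt2a. There, and with plain background subtraction, 3 genes of the list were 2-fold lower. With no filter on dim spots 0 were, so the 2-fold call of phkg1a also ended under that setting. Over all genes, 783 of 16582 were 2-fold lower in the authors' values, 528 of 16630 with plain subtraction and 215 of 35974 unfiltered. The highest of the list were the adenylate kinase gene ak1 at 0.46, gyg1a at 0.43 and cox6a2 at 0.43.

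Of the myogenic factors and fusion genes, 16 of 18 on the array were measured, with a median of 0.18 and 12 above 0 (background 47.9%). The transcription factor gene mef2ca was at 0.93, with the lowest of its 4 measured spots at 0.17, the early myogenic factor gene myf5 at 0.78 and mef2aa at 0.53. The lowest were prdm1a, a factor of slow muscle fate, at -0.38, sox6, a repressor of slow genes in fast fibres, at -0.31, and myf6 at -0.27.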
